A study of Homo sapiens with 10 samples.

Results

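The genes described here encode the machinery that carries a signal from a G protein-coupled receptor and then ends it: the Gα, Gβ and Gγ subunits, the regulators of G protein signalling (RGS), the G protein-coupled receptor kinases (GRK), the β-arrestins and the adenylyl cyclases (ADCY). They were picked by gene symbol, with earlier results of these data known, and 56 of the 27884 genes listed for each library carry such a symbol. Of these 56, 45 reached a normalized count of 10 in at least 5 libraries and were tested, and 11 stayed under that minimum. A further 10 genes of the same families (GNG8, GNG10, RGS1, RGS6, RGS7, RGS8, RGS18, RGS21, ADCY2 and ADCY8) have no row among those 27884 genes and were not analysed here. GRK2 and GRK3 are listed under their older symbols ADRBK1 and ADRBK2, which the symbol rule does not match, and their values are given beside the other kinases because both act on receptors such as PAR1.

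The cells were PANC-1, an established human line of pancreatic ductal adenocarcinoma (PDAC), grown in serum-supplemented DMEM and selected with puromycin. One arm, shPAR1 (5 libraries, numbered 1 to 5), carried a lentiviral hairpin against F2R, the gene of protease-activated receptor 1 (PAR1), from MISSION library clone TRCN0000003690. The other arm, shCtrl (5 libraries, numbered 6 to 10), carried control clone shc004, and RNA of all 10 libraries was sequenced after depletion of ribosomal RNA. A single hairpin was used, so that its effect on F2R and any effect on other transcripts cannot be told apart. The labels do not say whether the 5 libraries of an arm came from separate transductions or cultures, so p-values measure the spread between these libraries, which may be technical. In RNA from whole cultures, fewer cells of a type and less RNA per cell cannot be told apart.

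PAR1 is opened by proteases such as thrombin and acts as a guanine nucleotide exchange factor for heterotrimeric G proteins of the Gi/o, Gq/11 and G12/13 classes. The GTP-bound Gα and the freed Gβγ dimer then act on effectors: Gs raises and Gi lowers cAMP production by adenylyl cyclases, Gq/11 activates phospholipase C β, and G12/13 activates guanine nucleotide exchange factors of RhoA. RGS proteins speed up GTP hydrolysis on Gα, and GRKs phosphorylate active receptors. β-arrestins bind phosphorylated receptors, uncouple them from G proteins and bring many, but not all, of them to the endocytic machinery.

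Libraries held between 15335264 and 22876248 counts in shPAR1 and between 18317098 and 25369056 in shCtrl, and no pair of libraries was identical. F2R, the targeted gene, had deposited values of 10.20, 10.24, 10.32, 10.18 and 10.21 in shPAR1 libraries 1 to 5 and of 11.81, 11.75, 11.75, 11.80 and 11.82 in shCtrl libraries 6 to 10, on the log2(normalized count + 1) scale used for all levels below. It was lower in every shPAR1 library, by 1.56 on the log2 scale (SE 0.0402, adjusted p = 7.69e-15 with limma; exact two-sided permutation test over the libraries, p = 0.00794, the smallest that 5 against 5 allow). The share of mitochondrial transcripts lay between 7.37% and 9.08% in shPAR1, above the 5.71% to 7.07% seen in shCtrl. Of 6 epithelial marker genes KRT8, KRT18, KRT19 and EPCAM were lower and CDH1 higher in shPAR1, with summed normalized counts of 35832 to 41984 against 53553 to 56878, and KRT7 averaged only 3.82 and 4.26. None of the leukocyte markers PTPRC, CD14 and CSF1R was called (summed normalized counts 25.7 to 39.4 in shPAR1 and 22.5 to 32.3 in shCtrl), and no endothelial marker reached the count minimum. Lists of other cell types also moved: of 5 fibroblast and mural genes COL3A1 and PDGFRB were higher and COL1A1 and ACTA2 lower (sums of 5938 to 7106 against 4681 to 5432, DCN without a row), and of 4 neuronal genes SYP was higher (sums of 576 to 612 against 287 to 326, SNAP25 and ELAVL4 without a row). The part of these differences in the results below was not tested.

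Of the 45 tested genes, 11 were higher and 19 lower in shPAR1 and 15 did not pass (limma, Benjamini-Hochberg adjusted p under 0.05 over all 17518 genes tested). That is 24.4% higher and 42.2% lower, where the background over all genes tested was 19.0% higher and 21.9% lower, or 40.9% in either direction. The 5 shPAR1 values lay entirely above the 5 shCtrl values for 7 of the genes and entirely below for 17 (background 13.3% above and 15.9% below). Fold changes are differences of mean log2(normalized count + 1), a scale on which low-count genes appear to change less than they do. Of the changes, 15 of the 30 among called genes were smaller than 0.5 on the log2 scale. Absolute log2 fold changes of at least 1 were seen for 5 genes (11.1% of those tested, background 3.39%): RGS2 rose, and GNAO1, GNG2, RGS4 and ADCY1 fell. The median log2 fold change of the 45 genes was -0.15, where that of all genes tested was -0.0046. GNG2 reached the count minimum in all 5 shCtrl libraries but in 1 shPAR1 library only, so that its passing the filter depended on the group in which it is high.

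**Figure D1:**
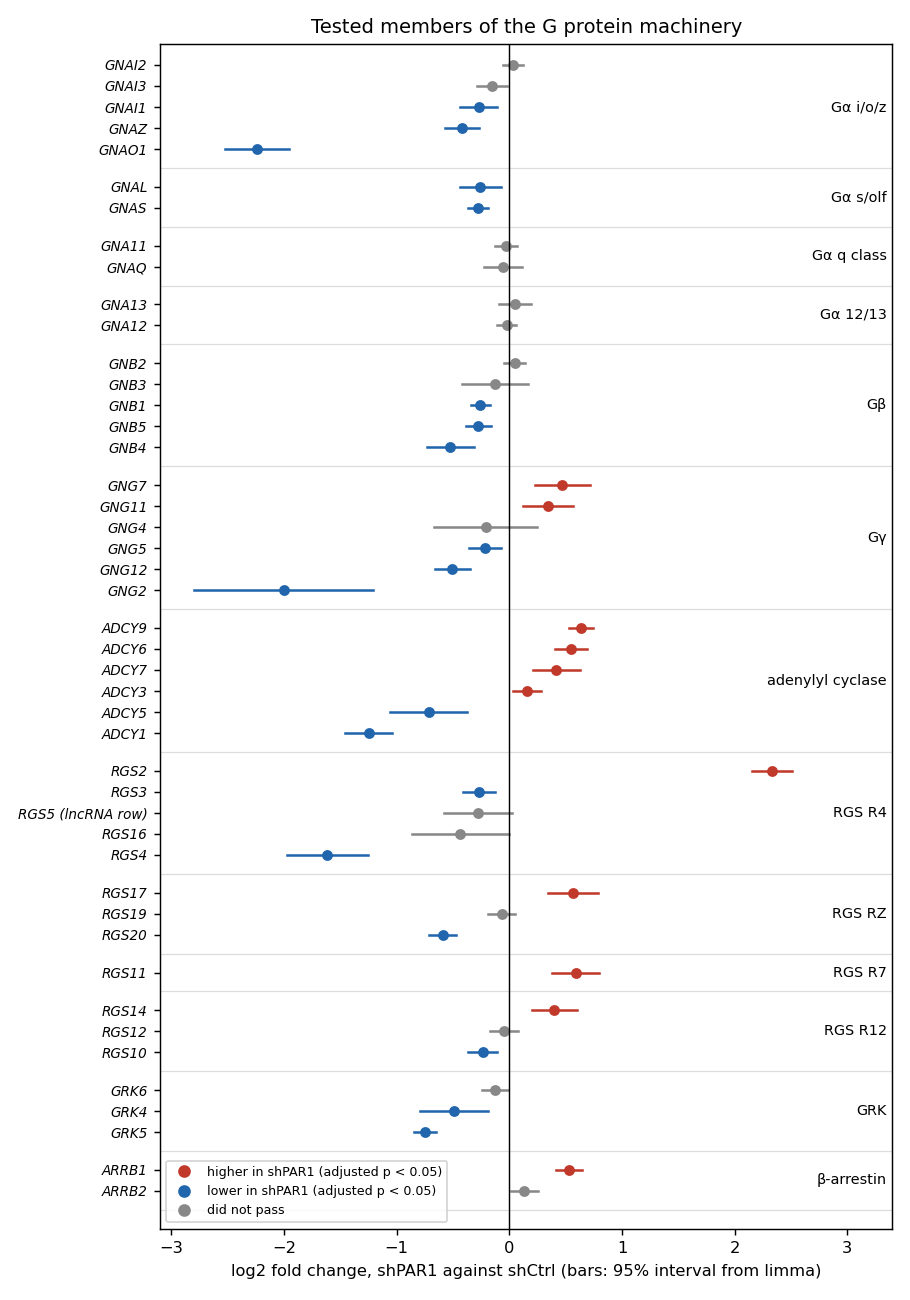
Log2 fold change of the 45 tested genes, shPAR1 against shCtrl, ordered by family, with the 95% interval from limma as bars. Red points were higher (11 genes), blue points lower (19 genes) and grey points did not pass (15 genes). RGS2 lies far to the right at 2.33, GNAO1 and GNG2 far to the left, and the Gαq/11 and Gα12/13 genes sit at the zero line.

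Among the Gα subunits, those of the Gq/11 and G12/13 classes, through which PAR1 signals to phospholipase C and RhoA, did not pass the test. GNAQ read 9.99, 9.62, 9.72, 9.89 and 10.07 in shPAR1 and 10.10, 9.85, 9.91, 9.75 and 9.94 in shCtrl. GNA11 read 10.92, 10.91, 11.02, 10.92 and 10.80 against 10.85, 10.98, 10.95, 11.00 and 10.97. The arms overlapped for both, and the 95% intervals of their log2 fold changes ran from -0.22 to 0.11 for GNAQ and from -0.13 to 0.06 for GNA11. GNA12 read 13.12, 13.20, 13.30, 13.14 and 13.24 against 13.19, 13.20, 13.24, 13.29 and 13.22. It had the most normalized reads per kb of exon among the Gα genes, with 6111 bp of annotated exons against 22221 bp for GNAS. Not divided by length, its mean normalized counts of 9432 in shPAR1 and 9587 in shCtrl were much closer to those of GNAS, 7479 and 9048. GNA13 read 10.91, 10.62, 10.80, 10.76 and 11.05 against 10.87, 10.74, 10.64, 10.75 and 10.86. Here too the arms overlapped, with intervals from -0.11 to 0.06 for GNA12 and from -0.09 to 0.20 for GNA13; changes of the size seen for RGS2 or GNAO1 lie outside all 4 intervals. The other members of the Gq class, GNA14 and GNA15, stayed under the count minimum in both arms.

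The inhibitory class was split. GNAI2, which accounted for most Gi/o/z transcripts per kb of exon, read 11.85, 12.01, 12.04, 11.95 and 11.96 in shPAR1 and 11.92, 11.89, 11.93, 11.97 and 11.94 in shCtrl, so the arms overlapped (log2 fold change 0.03, 95% interval -0.05 to 0.12). GNAI3 read 10.95, 10.68, 10.82, 10.90 and 11.13 against 11.14, 10.98, 10.99, 11.04 and 11.09 and did not pass (log2 fold change -0.15, adjusted p = 0.0682 with limma), but it did without shPAR1 library 5 (adjusted p = 0.00416 with limma). GNAI1 was lower in all 5 shPAR1 libraries, at 8.02, 7.80, 8.06, 8.11 and 8.25 against 8.47, 8.31, 8.32, 8.25 and 8.26, with the highest shPAR1 value just under the lowest shCtrl value. Its log2 fold change was -0.27 (SE 0.0785, adjusted p = 0.00967 with limma). GNAZ, a Gi relative that resists pertussis toxin, read 7.69, 7.84, 8.04, 7.94 and 7.96 against 8.32, 8.37, 8.23, 8.31 and 8.34. It fell by 0.42 on the log2 scale (SE 0.0719, adjusted p = 1.27e-04 with limma), without overlap.

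GNAO1, which encodes Gαo and is best known from neurons and endocrine cells, had the most negative log2 fold change of the tested genes of the machinery. Its values were 4.76, 5.34, 4.93, 5.05 and 4.62 in shPAR1 and 7.09, 7.10, 7.32, 7.27 and 7.12 in shCtrl. The arms were separated by a wide gap, and the mean normalized count was 30.1 in shPAR1 and 144 in shCtrl, a ratio of 0.209. The log2 fold change was -2.24 (SE 0.133, adjusted p = 2.88e-10 with limma), the 101st largest in size among the 17518 genes tested. GNAO1 lies at chr16:56191390-56357444 on the plus strand, and 607 of its exonic bases are shared with GNAO1-AS1 on the other strand. How reads over those bases were counted is not known, because the strand setting is not given. Per kb of exon, GNAO1 made up 1.14% of the Gi/o/z transcripts in shCtrl and 0.25% in shPAR1.

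The stimulatory class was lower. GNAS, the gene of Gαs, read 12.73, 12.86, 12.96, 12.84 and 12.93 in shPAR1 and 13.13, 13.12, 13.13, 13.16 and 13.17 in shCtrl. All shPAR1 values lay below all shCtrl values, and the fall was small and precise, with a log2 fold change of -0.28 (SE 0.0432, adjusted p = 5.06e-05 with limma) and a ratio of mean normalized counts of 0.827. The locus also gives rise to antisense GNAS-AS1, which shares 1127 exonic bases with it. GNAL, the olfactory relative of GNAS, read 7.17, 7.01, 7.01, 7.19 and 7.03 against 7.47, 7.25, 7.46, 7.34 and 7.18. The arms overlapped, the log2 fold change was -0.26 (SE 0.0861, adjusted p = 0.0228 with limma), and the call was lost without shCtrl library 6 (adjusted p = 0.0653 with limma) or 8 (adjusted p = 0.0600 with limma). GNAL also shares 2261 exonic bases with MPPE1 on the other strand.

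Of the Gβ subunits, 3 of 5 were lower and none was higher (background 21.9% lower and 19.0% higher). GNB1 read 12.99, 13.08, 13.19, 13.07 and 13.12 in shPAR1 and 13.35, 13.36, 13.29, 13.38 and 13.36 in shCtrl. GNB4 read 10.01, 9.57, 9.84, 9.65 and 10.10 against 10.63, 10.28, 10.22, 10.19 and 10.46. The arms did not overlap for either, with log2 fold changes of -0.26 for GNB1 (SE 0.0411, adjusted p = 6.28e-05 with limma) and -0.52 for GNB4 (SE 0.0976, adjusted p = 2.99e-04 with limma). GNB4 shares 1941 exonic bases with another annotated gene on the other strand. GNB5, the atypical Gβ that pairs with RGS proteins of the R7 class, was at 9.09, 9.05, 9.11, 9.17 and 9.17 against 9.41, 9.44, 9.27, 9.43 and 9.42. It fell by 0.28 on the log2 scale (SE 0.0516, adjusted p = 3.11e-04 with limma), without overlap, and shCtrl library 8 stood apart from the other 4. GNB2 (log2 fold change 0.05) and the retinal GNB3 (-0.13) did not pass. Per kb of exon, GNB2 gained from 48.7% ± 1.31 to 54.4% ± 0.98 of the Gβ transcripts (SD, n = 5) and GNB1 went from 42.8% ± 0.52 to 38.7% ± 0.46, without overlap between the arms in either. The order of these genes rests on the division by exon length. With normalized counts not divided by length, GNB1 led with 65.1% in shCtrl and 62.7% in shPAR1, and GNB2 held 22.1% and 26.3%.

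The Gγ subunits moved in both directions. GNG12, the most abundant one per kb, read 11.39, 11.03, 11.20, 11.32 and 11.50 in shPAR1 and 11.96, 11.74, 11.67, 11.75 and 11.85 in shCtrl. Every shPAR1 value lay below every shCtrl value, with a log2 fold change of -0.51 (SE 0.0727, adjusted p = 2.09e-05 with limma). GNG5 was also lower (log2 fold change -0.22, SE 0.0658, adjusted p = 0.0134 with limma), but its arms overlapped. GNG2, a low-count transcript, read 1.17, 1.84, 2.96, 2.89 and 3.62 against 4.39, 4.18, 4.63, 4.47 and 4.83. Its log2 fold change of -2.0 (SE 0.378, adjusted p = 3.28e-04 with limma) had the largest standard error of the 30 called genes, and it rested on mean normalized counts of 5.66 and 21.9.

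In contrast, GNG7 and GNG11 were higher. GNG7, a partner of Gαolf in the striatum, read 6.56, 6.98, 6.78, 6.84 and 6.64 in shPAR1 and 6.05, 6.55, 6.35, 6.18 and 6.30 in shCtrl, and the lowest shPAR1 value was just above the highest shCtrl value. Its log2 fold change was 0.47 (SE 0.115, adjusted p = 0.00300 with limma). GNG11 read 8.01, 7.93, 7.79, 8.18 and 8.31 against 7.91, 7.64, 7.86, 7.42 and 7.68. The arms overlapped and the log2 fold change was 0.34 (SE 0.105, adjusted p = 0.0143 with limma). Within the family, GNG12 went from 59.3% ± 1.70 of the Gγ transcripts per kb in shCtrl to 52.3% ± 2.90 in shPAR1, and GNG11 from 5.43% ± 0.57 to 8.60% ± 0.73 (SD, n = 5). GNG4 did not pass (log2 fold change -0.21, 95% interval -0.67 to 0.25).

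The RGS genes held the strongest rise of the machinery. RGS2, whose product acts preferentially on Gαq, read 9.20, 9.37, 9.49, 9.46 and 9.55 in shPAR1 and 6.97, 6.86, 7.17, 7.23 and 7.18 in shCtrl. The lowest shPAR1 value was far above the highest shCtrl value. Mean normalized counts were 682 and 135, a 5.05-fold difference, with a log2 fold change of 2.33 (SE 0.0839, 95% interval 2.15 to 2.51, adjusted p = 3.51e-13 with limma) that ranked 91st in size among all genes tested. RGS2 lies at chr1:192809039-192812275 on the plus strand and shares no exonic base with another annotated gene. Its neighbour RGS13, which ends 148.7 kb upstream, was under the count minimum, at 2.24, 1.44, 2.14, 2.89 and 2.35 against 2.21, 0.00, 1.06, 0.00 and 0.00.

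RGS4, another small RGS protein of the R4 class that acts on Gαi and Gαq, went the other way. Its values were 3.88, 4.04, 3.63, 3.90 and 4.21 in shPAR1 and 5.64, 5.44, 5.31, 5.60 and 5.72 in shCtrl, without overlap. The log2 fold change was -1.61 (SE 0.170, adjusted p = 5.16e-07 with limma) at mean normalized counts of 14.4 and 45.8. RGS16, of the same class and at a similarly low level, read 3.88, 4.18, 3.98, 4.09 and 4.21 against 4.51, 4.55, 4.80, 4.71 and 3.92. With shCtrl library 10 inside the shPAR1 range it did not pass (log2 fold change -0.43, adjusted p = 0.102 with limma), and without that library it did (log2 fold change -0.58, adjusted p = 0.0289 with limma). RGS3 read 9.12, 9.11, 9.08, 8.99 and 8.97 against 9.22, 9.35, 9.20, 9.57 and 9.26, and fell by 0.27 on the log2 scale (SE 0.0677, adjusted p = 0.00414 with limma), without overlap. The gene listed as RGS5 carries an identifier that GENCODE 44 assigns to a long non-coding RNA sharing 534 exonic bases with RGS5, and it did not pass (log2 fold change -0.27).

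In the RZ class, whose members act on Gαz and Gαi, RGS20 and RGS17 moved apart. RGS20 read 9.39, 9.33, 9.36, 9.47 and 9.63 in shPAR1 and 10.02, 9.99, 10.07, 10.02 and 10.05 in shCtrl, and RGS17 read 10.53, 9.98, 10.09, 10.10 and 10.51 against 9.98, 9.70, 9.49, 9.54 and 9.67. RGS20 was lower without overlap (log2 fold change -0.59, SE 0.0557, adjusted p = 1.23e-07 with limma). RGS17 was higher (log2 fold change 0.56, SE 0.105, adjusted p = 3.04e-04 with limma), with shPAR1 library 2 and shCtrl library 6 at nearly the same value. RGS19, the third member, did not pass (log2 fold change -0.07).

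Of the remaining RGS genes, RGS11 of the R7 class, which needs GNB5 as its partner, read 8.01, 7.99, 7.85, 7.82 and 7.65 in shPAR1 and 7.01, 7.39, 7.52, 7.24 and 7.21 in shCtrl. It was higher without overlap (log2 fold change 0.59, SE 0.0973, adjusted p = 9.22e-05 with limma), while its partner gene GNB5 was lower. RGS11 shares 993 exonic bases with FAM234A on the other strand. RGS14 and RGS10 of the R12 class also parted: RGS14 read 7.44, 7.46, 7.71, 7.58 and 7.33 against 7.02, 7.27, 7.26, 7.0 and 6.97, and RGS10 read 8.63, 8.76, 8.82, 8.86 and 8.99 against 9.04, 9.09, 9.03, 9.02 and 9.06. Neither overlapped between the arms, with log2 fold changes of 0.40 for RGS14 (SE 0.0933, adjusted p = 0.00208 with limma) and -0.24 for RGS10 (SE 0.0625, adjusted p = 0.00524 with limma). RGS12 did not pass (log2 fold change -0.05).

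**Figure D2:**
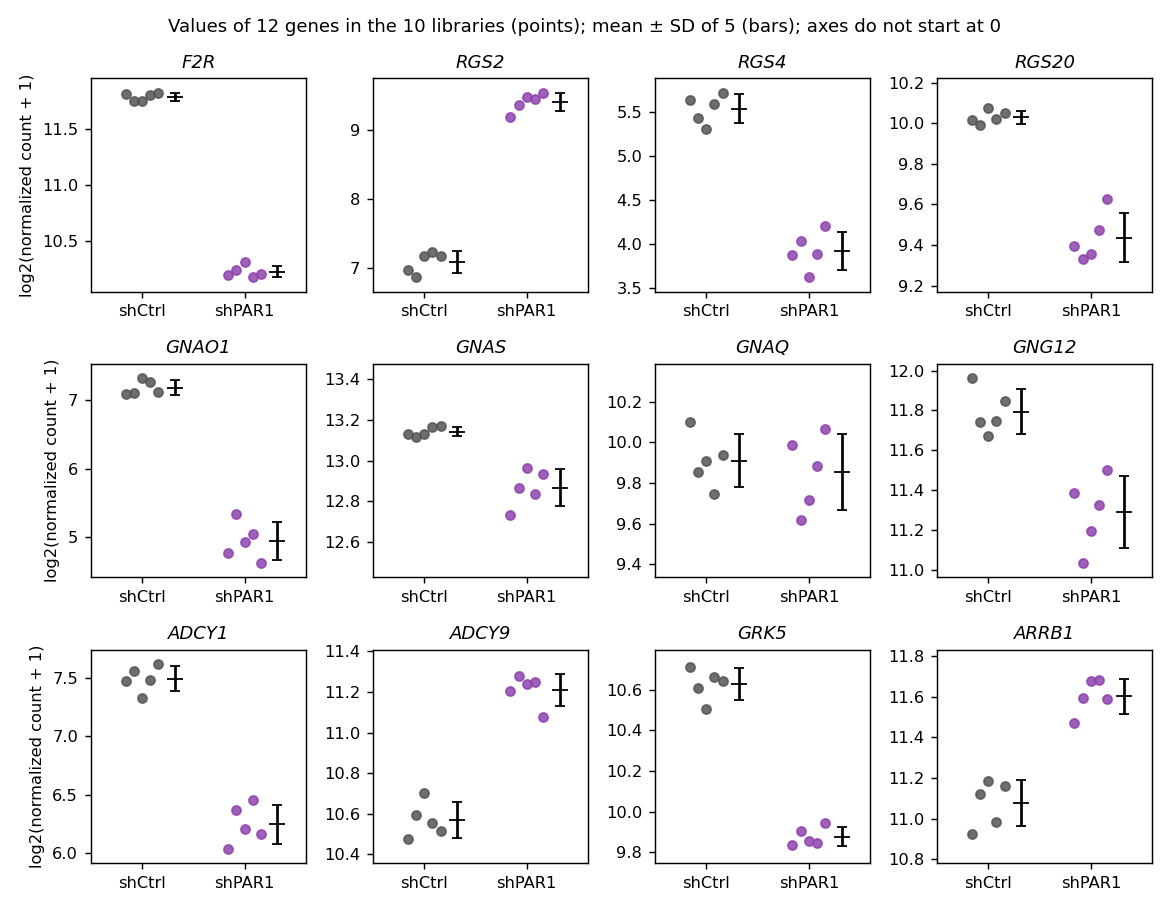
Log2(normalized count + 1) of F2R and 11 other genes in each of the 5 shCtrl (grey) and 5 shPAR1 (purple) libraries, with the mean ± SD of 5 libraries as a bar beside each group; the axes do not start at zero. RGS2, ADCY9 and ARRB1 lie higher in every shPAR1 library, GNAQ overlaps between the arms, and the other 8 genes lie lower in every shPAR1 library.

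The rise of RGS2 changed the make-up of the RGS transcripts. Per kb of exon, RGS2 accounted for 5.01% ± 0.52 of all RGS transcripts in shCtrl and for 22.8% ± 1.39 in shPAR1 (SD, n = 5). RGS10 and RGS20, which led in shCtrl with 32.1% ± 0.75 and 25.2% ± 0.54, went to 24.6% ± 1.22 and 15.1% ± 0.64. In shCtrl RGS2 came after RGS10, RGS20, RGS19 and RGS17, and in shPAR1 its share range of 20.4% to 24.0% overlapped with the 22.5% to 25.7% of RGS10. These shares and their order rest on the division by exon length. With normalized counts not divided by length, RGS2 went from 2.97% ± 0.32 in shCtrl to 13.6% ± 1.26 in shPAR1 (SD, n = 5), below RGS17 at 24.3% ± 3.42 in shPAR1. The row listed as RGS5 was left out of these shares, and GRK2 and GRK3 are included in those of the GRK genes. The RGS transcripts summed to 1433 ± 72.0 normalized reads per kb in shPAR1 and 1291 ± 10.7 in shCtrl, a ratio of 1.11 without overlap.

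**Figure D3:**
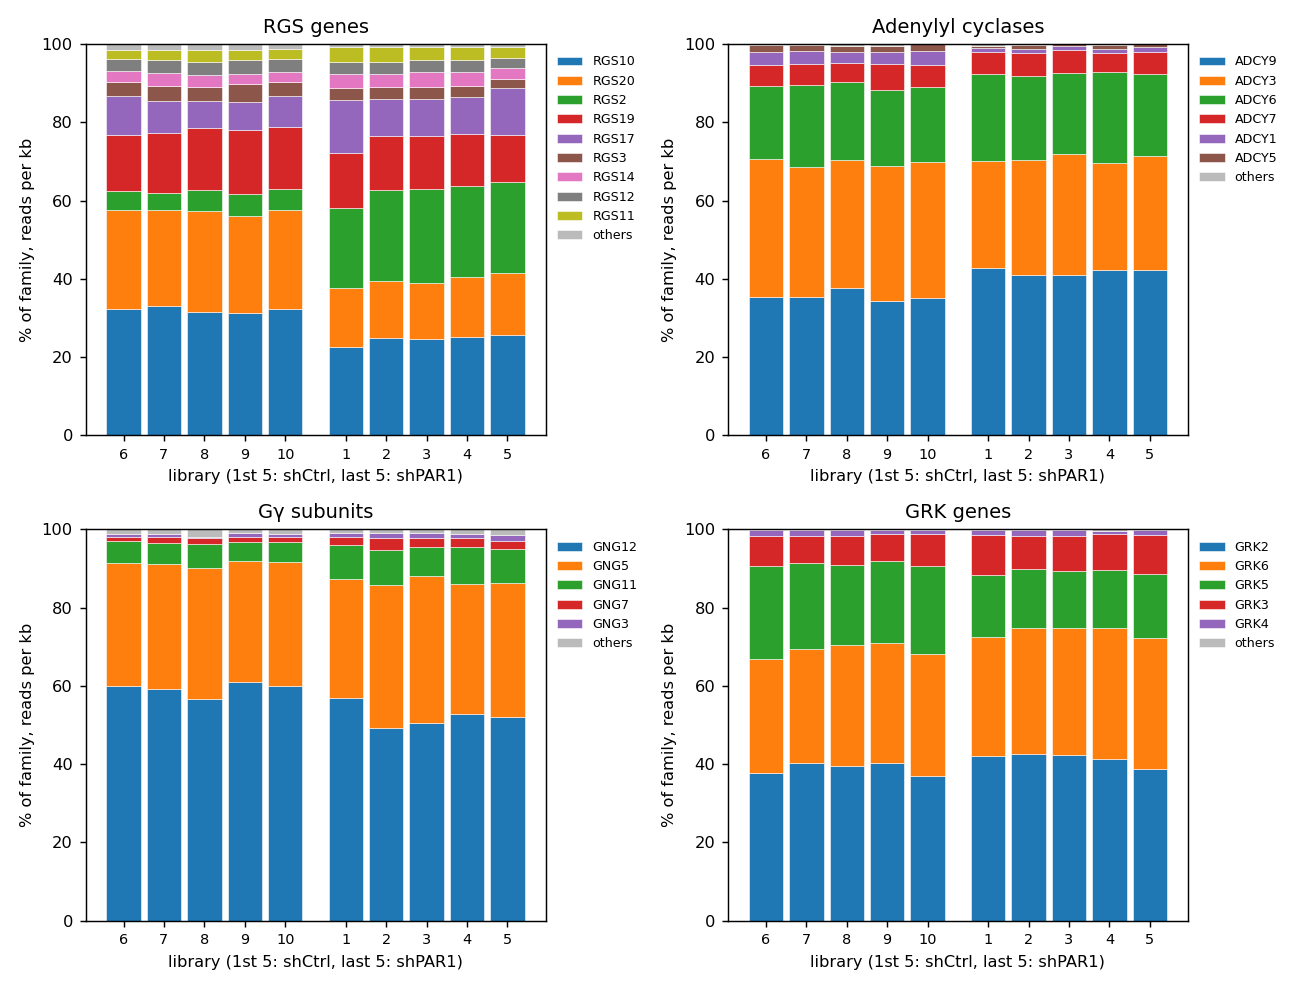
Share of each gene in its family's reads per kb of exon, in percent, for the RGS, adenylyl cyclase, Gγ and GRK genes in each library (stacked bars, shCtrl libraries 6 to 10 at the left, shPAR1 libraries 1 to 5 at the right; genes under 1% in both arms are joined as others). The green RGS2 band widens from 5.01% to 22.8% on average, and the green GRK5 band narrows from 22.0% to 15.3%.

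RGS2 and GNAO1, the genes with the strongest rise and fall, each have a single listed RefSeq start. Their upstream bases are shown because cAMP response elements (CRE) are the best-known route from adenylyl cyclase to transcription. GNG7 is added because it and GNAO1 alone hold the full CRE palindrome TGACGTCA among the tested genes with a window. Each window spans the 250 bases upstream of a RefSeq start (GRCh38.p14). Capitals mark that palindrome in GNAO1 and GNG7 and the core letters TGACG, read on the minus strand, in RGS2. The GNAO1 sequence stops where the GENCODE 44 gene begins.
RGS2, chr1:192808789-192809038, plus strand: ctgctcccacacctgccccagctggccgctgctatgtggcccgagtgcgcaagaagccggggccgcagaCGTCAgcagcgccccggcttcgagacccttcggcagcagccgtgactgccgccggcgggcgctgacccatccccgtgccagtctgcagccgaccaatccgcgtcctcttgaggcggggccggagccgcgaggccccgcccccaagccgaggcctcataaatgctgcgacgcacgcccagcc
GNAO1, chr16:56191239-56191389, plus strand: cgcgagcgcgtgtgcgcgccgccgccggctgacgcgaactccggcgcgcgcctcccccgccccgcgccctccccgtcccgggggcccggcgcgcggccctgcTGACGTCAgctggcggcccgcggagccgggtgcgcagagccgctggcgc
GNG7, chr19:2702695-2702944, minus strand: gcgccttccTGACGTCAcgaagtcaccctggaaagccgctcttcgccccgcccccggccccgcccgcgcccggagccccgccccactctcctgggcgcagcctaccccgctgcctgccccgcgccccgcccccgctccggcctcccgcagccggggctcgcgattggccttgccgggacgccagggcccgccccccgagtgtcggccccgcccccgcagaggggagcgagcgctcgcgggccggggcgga
The palindrome lies at bases -148 to -141 of the GNAO1 start and -241 to -234 of the GNG7 start, and the core at -181 to -177 of the RGS2 start. Searched on both strands, TGACGTCA was found in 2 of the 72 windows of tested genes and in 1.65% of all 35116 RefSeq windows. The core TGACG, which is part of the palindrome, was found in 21 of the 72 windows, or 29.2%, and in 21.2% of all. A gene can have several windows, and where they overlap the same site counts more than once, as in RGS4. Of the pair with the palindrome GNAO1 was lower and GNG7 higher in shPAR1. RGS2 also has a CCAAT box at -89 to -85, letters found in 32.0% of all windows. ARRB1 and ADCY9 had no entry among these windows.

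Among the kinases, GRK5 was lower. GRK5, which is held at the plasma membrane and phosphorylates active receptors, read 9.84, 9.91, 9.86, 9.84 and 9.94 in shPAR1 and 10.71, 10.61, 10.51, 10.67 and 10.64 in shCtrl. The arms were far apart, with a log2 fold change of -0.75 (SE 0.0469, adjusted p = 5.38e-10 with limma) and a ratio of mean normalized counts of 0.594. GRK4 read 5.67, 5.85, 5.85, 5.18 and 5.68 against 6.16, 6.36, 6.21, 6.03 and 5.90, and fell by 0.49 on the log2 scale (SE 0.143, adjusted p = 0.0105 with limma), without overlap. GRK6 read 10.09, 10.31, 10.34, 10.32 and 10.29 against 10.33, 10.33, 10.40, 10.52 and 10.41 and did not pass (log2 fold change -0.13, adjusted p = 0.0650 with limma).

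The kinases recruited to Gβγ at the membrane showed little difference. GRK2 read 11.16, 11.32, 11.31, 11.23 and 11.11 in shPAR1 and 11.29, 11.39, 11.36, 11.51 and 11.27 in shCtrl. Its arms overlapped, and its log2 fold change of -0.14 (adjusted p = 0.0455 with limma) did not pass without shPAR1 library 1, 4 or 5 or shCtrl library 7, 8 or 9 (adjusted p from 0.0729 to 0.132 with limma). GRK3 read 9.61, 9.49, 9.59, 9.57 and 9.65 against 9.51, 9.35, 9.43, 9.44 and 9.57 and did not pass (log2 fold change 0.12, adjusted p = 0.0722 with limma), but it did without shPAR1 library 2 or shCtrl library 10 (adjusted p = 0.0400 and 0.0422 with limma). Per kb of exon, GRK5 held 22.0% ± 1.23 of the GRK transcripts in shCtrl and 15.3% ± 0.75 in shPAR1 (SD, n = 5), and GRK2 was first in both arms with 38.9% ± 1.49 and 41.5% ± 1.53.

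ARRB1, the gene of β-arrestin 1, which uncouples PAR1 from G proteins, was higher in shPAR1. It read 11.47, 11.59, 11.68, 11.68 and 11.59 in shPAR1 and 10.93, 11.12, 11.18, 10.99 and 11.16 in shCtrl. The arms did not overlap, and the log2 fold change was 0.53 (SE 0.0551, adjusted p = 4.69e-07 with limma), a ratio of mean normalized counts of 1.44. ARRB1 shares 2338 exonic bases with another annotated gene on the same strand. ARRB2 read 9.27, 9.52, 9.52, 9.38 and 9.53 against 9.30, 9.27, 9.34, 9.30 and 9.34. With shPAR1 library 1 level with the lowest shCtrl library it did not pass (log2 fold change 0.13, adjusted p = 0.0741 with limma). Without shPAR1 library 1 it did (log2 fold change 0.17, adjusted p = 0.00960 with limma). ARRB1 took 59.5% ± 1.72 of the arrestin transcripts per kb in shCtrl and 65.9% ± 1.52 in shPAR1 (SD, n = 5).

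All 6 tested adenylyl cyclases passed the test, 4 higher and 2 lower (background 40.9% in either direction), with ADCY3 close to the threshold. ADCY9, the most abundant one per kb and the isoform known for its weak response to forskolin, read 11.20, 11.28, 11.24, 11.25 and 11.07 in shPAR1 and 10.48, 10.60, 10.70, 10.56 and 10.52 in shCtrl. It was higher in every shPAR1 library, with a log2 fold change of 0.64 (SE 0.0506, adjusted p = 1.38e-08 with limma) and a ratio of mean normalized counts of 1.56. ADCY6, an isoform inhibited by Gαi and by calcium, was higher without overlap (log2 fold change 0.55, SE 0.0672, adjusted p = 3.40e-06 with limma). ADCY7, an isoform stimulated by Gβγ, was higher with overlap between the arms (log2 fold change 0.42, SE 0.0981, adjusted p = 0.00219 with limma), and shares 3593 exonic bases with BRD7 on the other strand. ADCY3 passed narrowly (log2 fold change 0.15, SE 0.0584, adjusted p = 0.0420 with limma). Its call was lost without shPAR1 library 2, 3 or 4 or shCtrl library 6, 7, 8 or 10 (adjusted p from 0.0514 to 0.122 with limma), and it shares 1488 exonic bases with CENPO on the other strand.

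The cyclases that were lower were the less abundant ones. ADCY1, a calcium- and calmodulin-stimulated isoform known from neurons, read 6.04, 6.36, 6.20, 6.45 and 6.17 in shPAR1 and 7.47, 7.56, 7.33, 7.48 and 7.62 in shCtrl. The groups were well apart, with a log2 fold change of -1.25 (SE 0.0987, adjusted p = 1.37e-08 with limma) and a ratio of mean normalized counts of 0.419. ADCY5, the close relative of ADCY6, read 5.06, 5.73, 4.76, 5.52 and 5.21 against 5.97, 6.0, 6.01, 5.87 and 6.01, and fell by 0.72 on the log2 scale (SE 0.163, adjusted p = 0.00171 with limma), without overlap. The shPAR1 libraries spread more (SD 0.38) than the shCtrl libraries (SD 0.06). ADCY5 and ADCY6, which share regulation by Gαi, changed in opposite directions. ADCY9, ADCY3 and ADCY6 led the family in both arms, ADCY9 with 35.5% ± 1.18 of the transcripts per kb in shCtrl and 41.9% ± 0.82 in shPAR1 (SD, n = 5), while ADCY1 went from 3.19% ± 0.31 to 1.01% ± 0.10.

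Summed per kb of exon, the families differed in direction. The cyclases summed to 534 ± 35.1 normalized reads per kb in shPAR1 and 403 ± 16.2 in shCtrl, a ratio of 1.32, and the arrestins to 478 ± 27.3 and 367 ± 18.8, a ratio of 1.30, both without overlap. The Gγ genes (ratio 0.80), the Gαs/olf genes (0.83) and the GRK genes (0.85) were lower without overlap. The sums of the Gαi/o/z (ratio 0.95), Gαq/11 (0.98), Gα12/13 (0.99) and Gβ genes (0.92) overlapped between the arms, and for Gβ the ratio was 0.87 with normalized counts not divided by length.

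**Figure D4:**
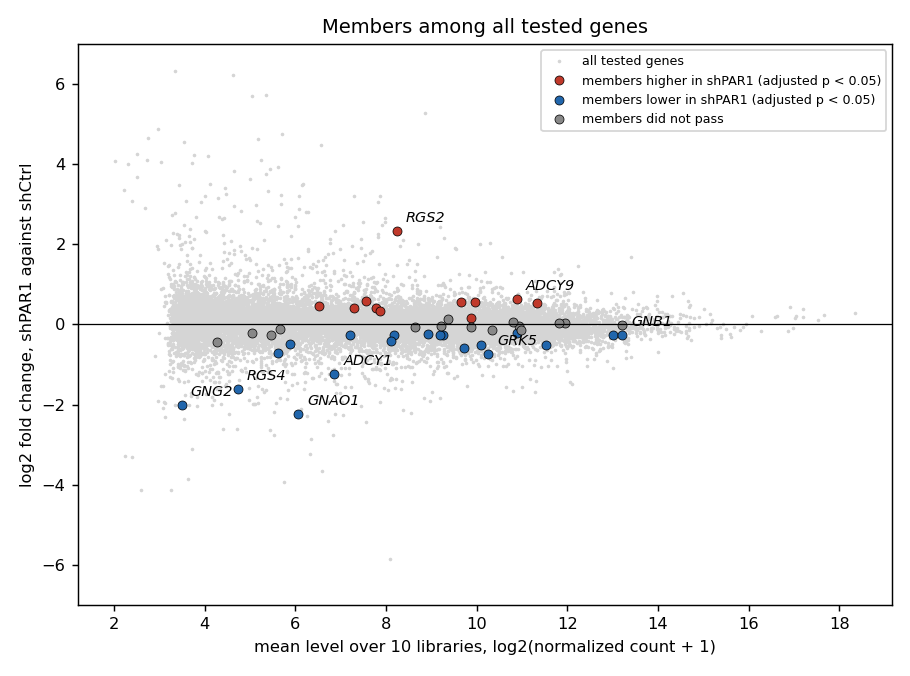
Mean level over 10 libraries, log2(normalized count + 1), against the log2 fold change of shPAR1 against shCtrl for all 17518 tested genes (light grey), with the 45 tested genes of the machinery in red (higher), blue (lower) and dark grey (did not pass). The genes with an absolute log2 fold change of at least 1 (RGS2, GNAO1, GNG2, RGS4 and ADCY1) lie at low to middle levels, and the abundant subunits such as GNB1 lie close to the zero line.

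The 11 genes under the count minimum were ADCY4, ADCY10, GNA14, GNA15, GNG3, GNG13, GRK1, GRK7, RGS9, RGS13 and RGS22. None of their library values exceeded 4.04, the lowest were 0.0, and the arms overlapped for all 11. Some are genes of retina or other specialised tissues, such as GRK1 and GRK7, the kinases of rod and cone opsins, and RGS9 of the phototransduction pathway.

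By position, 10 pairs of these genes lay within 500 kb of each other. GRK5 and RGS10, which are 40.1 kb apart on chromosome 10, were both lower. RGS14 and GRK6, 30.6 kb apart on chromosome 5, were not called alike, RGS14 being higher while GRK6 did not pass. GRK4 was lower while RGS12, 252.3 kb away on chromosome 4, did not pass.

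Genes that act next to this machinery were read in the same way, apart from RGS7BP, which has no row. Of the 44 with a row, 41 were tested, 7 were higher, 13 lower and 21 did not pass. That is 17.1% higher and 31.7% lower, or 48.8% in either direction, beside a background of 19.0%, 21.9% and 40.9%. These genes and lists were chosen with earlier results of these data known, so their shares, here and below, are descriptions only. The other thrombin and trypsin receptors fell with F2R, F2RL2 (PAR3) by 1.33 on the log2 scale (SE 0.0829, adjusted p = 5.25e-10 with limma) and F2RL1 (PAR2) by 0.56 (SE 0.0376, adjusted p = 1.39e-09 with limma), both without overlap, while F2RL3 (PAR4) was under the count minimum. F2RL2 read 7.28, 7.46, 7.38, 7.63 and 7.46 against 8.70, 8.80, 8.62, 8.72 and 9.02. Of the phospholipase C β genes, the effectors of Gαq, PLCB3 was slightly higher (log2 fold change 0.18, SE 0.0484, adjusted p = 0.00525 with limma) and the low-count PLCB2 lower (log2 fold change -1.22, SE 0.231, adjusted p = 3.51e-04 with limma). PLCB1 and PLCB4 were under the count minimum and had means of 2.66 and 3.18 in shPAR1 against 0.67 and 0.96 in shCtrl.

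Among 4 RhoA exchange factors downstream of Gα12/13, AKAP13 was lower (log2 fold change -0.27, SE 0.0443, adjusted p = 8.91e-05 with limma) and ARHGEF11 higher (log2 fold change 0.12, SE 0.0398, adjusted p = 0.0182 with limma), the latter not without shCtrl library 10 (adjusted p = 0.0603 with limma). Of 8 genes of protein kinase A and EPAC, the cAMP receptors of the cell, the regulatory subunit PRKAR2B was the only one called (12.5%, background 40.9%), higher by 0.95 on the log2 scale (SE 0.221, adjusted p = 0.00203 with limma) at mean normalized counts of 30.0 and 15.0. Of 12 chaperones and non-receptor regulators of G proteins with a row, 3 were higher and 1 lower, or 33.3% called, which is under the background of 40.9%. Among them were AXIN2, a Wnt pathway scaffold with an RGS domain (log2 fold change 1.52, SE 0.186, adjusted p = 3.24e-06 with limma), and GPSM2, a Gαi-binding protein of the mitotic spindle (log2 fold change -0.44, SE 0.0504, adjusted p = 1.42e-06 with limma).

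Of 12 CREB factors and classic cAMP-induced targets, 7 were lower and 1 was higher, or 58.3% and 8.33%, where the background was 21.9% lower and 19.0% higher. This list too was chosen with earlier results of these data known. The lower ones were the factors CREB1, ATF1 and CRTC3 and the targets FOS, NR4A1, SIK1 and PER1. The arms overlapped for CREB1, ATF1, SIK1 and PER1. FOS, an immediate-early gene, read 6.09, 5.78, 5.82, 5.88 and 6.27 in shPAR1 and 7.44, 7.18, 7.08, 7.63 and 7.31 in shCtrl, and fell by 1.36 on the log2 scale (SE 0.123, adjusted p = 7.26e-08 with limma), without overlap. NR4A2, a nuclear receptor of the same immediate-early kind, was higher (log2 fold change 0.77, SE 0.194, adjusted p = 0.00394 with limma), at 6.01, 5.37, 5.67, 5.45 and 5.46 against 4.39, 5.21, 4.50, 4.77 and 5.27. Its relative NR4A1 was lower (log2 fold change -0.55, SE 0.128, adjusted p = 0.00218 with limma) and NR4A3 did not pass. These genes respond to many inputs besides cAMP, and cAMP itself was not measured.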

How the data were processed

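The authors ran FastQC 0.11.5, Trimmomatic 0.36, HISAT2 2.1.0 against GRCh38, HTSeq and DESeq2 per the submitters' processing notes. Neither the gene annotation nor the strandedness of counting is given in the sources used here. What the authors deposited are log2 values, log2(count / size factor + 1), and no listed gene has fewer than 10 counts in all. From them the size factors and whole counts were recovered (largest distance from a whole number 0.00108).

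Groups followed the labels, which equal the group in the file header in 10 of 10 libraries. The deposited log2 values were fitted with limma 3.58.1 in R 4.3.3 (eBayes with a trended prior), shPAR1 against shCtrl with no covariate, over the 17518 genes that reached a normalized count of 10 in 5 or more libraries, with Benjamini-Hochberg adjustment over all of them at 0.05. Levels of different genes were compared as normalized counts per kb of GENCODE 44 exons, to which 27361 identifiers were matched. Promoter windows came from a set of windows at RefSeq starts (GRCh38.p14), and this set has an entry for 45 of the 56 genes. These are not the 45 tested genes, since ARRB1 and ADCY9 were tested and have no entry. Alternatives were voom with quality weights, other filters, a pseudocount of 5, other scalings and leaving out each library.

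Values of all libraries are given for up to 3 called genes per family with the largest absolute log2 fold change and a mean normalized count of at least 50, and for genes known to couple or desensitise PAR1. Of the neighbouring genes up to 2 called ones per list are named. GNG2, RGS13, F2RL1, F2RL3, PLCB1, PLCB4, NR4A1 and NR4A3 fall outside this rule and were named after their values were seen. The same holds for CREB1, ATF1, CRTC3, SIK1 and PER1. The genes and lists were chosen with earlier results of these data known.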

Additional observations from a re-analysis of the deposited data

Results flagged for a closer look

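In 3 of 120 sets of 5 library values, examined for 60 genes (the 45 tested genes of the machinery, GRK2, GRK3, F2R and the neighbouring genes named with a log2 fold change), a library lay far from the other 4 by Dixon's criterion, which chance alone exceeds in about 1 in 20 sets. GNB5 was at 9.27 in shCtrl library 8, where the other shCtrl libraries lay between 9.41 and 9.44. GRK4 was at 5.18 in shPAR1 library 4, where the others lay between 5.67 and 5.85. GRK6 was at 10.09 in shPAR1 library 1, where the others lay between 10.29 and 10.34.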

How the results depend on the processing

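Under 16 alternatives the 56 genes gave 10 to 12 higher and 18 to 20 lower calls (11 and 19 as reported), and the neighbouring genes 6 to 9 higher and 11 to 15 lower (7 and 13). Of 958 values of 60 single genes 928 kept direction and side of the threshold, 20 lost a call, 8 of them each in ADCY3 and GRK2, 8 gained one, and no called gene reversed. Among genes that did not pass, the log2 fold change reversed for GNAQ, to 0.0045 without shPAR1 library 2 (range with 1 library left out -0.11 to 0.0045), and for GNA13, to -0.00039 without shPAR1 library 5 (range -0.00039 to 0.11). With voom, GNAI3 (adjusted p = 0.0233) and ARRB2 (0.0407, and 0.0439 with total-count scaling) passed and GNAL did not (0.0555), and without a filter on low values ADCY3 (0.0548) and GRK2 (0.0571) did not pass. GRK2 also missed the threshold with total-count scaling (0.0692).

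With normalized counts not divided by length, the difference in share, shPAR1 minus shCtrl, was 10.7 percentage points for RGS2 (17.8 per kb), -2.63 for RGS10 (-7.52), -9.10 for RGS20 (-10.1), 4.18 for GNB2 (5.73), -2.39 for GNB1 (-4.04), 2.13 for GNG11 (3.17), -1.65 for GNAO1 (-0.89), 4.46 for ARRB1 (6.41) and -3.51 for ADCY1 (-2.18), and the ratio of the summed Gβ genes was 0.87 (0.92). The size of these shares, and in several families the order of the genes, thus rests on exon length, while each of these differences kept its sign. In shCtrl, for example, GRK6 lay above GRK5 per kb (30.2% and 22.0%) and below it when not divided by length (21.2% and 24.9%). No paired analysis was possible because the labels, which number the libraries 1 to 10, give no batch or pairing.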
